A study of Arabidopsis thaliana with 14 samples.

Results

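Transcripts that were lower in gir plants than in the wild type both in roots and in inflorescences are described here. The members were chosen by their values: on group means of log2(intensity + 26), gir minus Col-7 had to be at or under -0.4 in each of the 2 tissues, and every gir array had to lie below every Col-7 array of that tissue. Of 22746 probe sets without the array's controls, 140 met these conditions (0.615%), and 2 of them, the endoglucanase genes GH9B13 and GH9C2, were left out by the rule, which takes no symbol starting with GH9 or EXP. The 138 remaining members comprise 65 probe sets that name 1 gene each, 65 genes in all, and 73 probe sets for which the annotation used here lists no gene. Since the genotype differences of both tissues chose the members, they are given as a description, with no test.

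The series compares Arabidopsis thaliana of the accession Col-7 with the mutant gir (gir1, glucose-inhibited root elongation1) on Affymetrix arrays. Root RNA came from plants 21 days old that had been moved to 4% glucose, with 3 gir and 3 Col-7 arrays. The series' design text gives 11 days without and 10 days with glucose, while the sample protocol gives 7 days on a first plate, so the times are uncertain. Inflorescence RNA came from soil-grown plants 33 days old without open or opening flowers, with 4 gir and 4 Col-7 arrays. The labels name no other allele or agent, do not say which gene is mutated or how, and do not say whether replicates came from separate plants, so the spread between arrays may be partly technical. Tissue, age, medium and glucose change together between the root and the inflorescence samples and cannot be told apart.

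Of the 65 named genes, 5 form a pectin group by their families, as pectinesterases or pectinesterase inhibitor family proteins. Another 6 were grouped with other parts of the cell wall, though not each is shown here to act on it. These and the other groups by role were made after the values were seen, and no share of them was tested against the array. Pectin, a main polysaccharide of the primary wall, is secreted with methyl esters on it. Pectinesterases remove these esters, and small inhibitor proteins block the pectinesterases, which alters how stiff the wall is. Growing pollen tubes and root hairs both extend at the tip and use wall enzymes, receptor kinases, calcium-binding proteins and myosins that carry vesicles along actin.

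Arrays of one group correlated at 0.983 to 0.993 on the log2 scale. An actin control, read at its 3' end over its 5' end, gave 1.49 ± 0.08 on Col-7 and 1.67 ± 0.06 on gir root arrays (SD, n = 3 each). On inflorescence arrays it gave 2.27 ± 0.04 in Col-7 and 2.16 ± 0.15 in gir (n = 4 each). A further actin control set read far higher, and its genotypes overlapped in both tissues. It spanned 13.24 to 14.98 on Col-7 and 13.73 to 15.66 on gir root arrays. On inflorescence arrays it spanned 13.23 to 18.66 in Col-7 and 14.81 to 18.74 in gir. The 25S ribosomal RNA control read 865 to 1270.2 on Col-7 root arrays and 390 to 774 on gir root arrays. In inflorescences the 25S signal spanned 345 to 6585 in Col-7 and 359 to 8660.0 in gir. In lists of cell type markers, 9 of 23 late pollen genes were measured, and their summed intensity was 4335 to 4772 on Col-7 and 965 to 1326 on gir inflorescence arrays. All 7 of them that passed the filter on dim probe sets fell by limma's test, where 12.5% of all tested probe sets did. Nothing is read from the count of 7. ANX2, MGH3, AGL104, AT59 and AGL66 were bright enough on 4 arrays only, those of Col-7 inflorescences, and so had to be lower in gir. ANX2, a receptor-like kinase of pollen tubes, was at 381 in Col-7 and 34.8 in gir, and the pollen actin ACT12 at 695 and 137. In gir inflorescences ANX1, ANX2, AGL104, AGL66, MGH3 and AT59 had means of 22.6 to 89.5. These lay below the 40th percentiles of 126 to 130.4 of those arrays. Of 16 tapetum genes 5 were measured. They summed to 5523 to 6434 on Col-7 and to 5752 to 6285 on gir inflorescence arrays, and none of them passed limma's test in inflorescences. Of 8 green tissue markers 2 were measured. Both rose there by limma, RCA by 0.26 (adjusted p = 0.033) and LHCB4.1 by 0.32 (adjusted p = 0.018), where 12.5% of all tested probe sets rose. Together they read 16473 to 18491 on Col-7 and 20584 to 22701 on gir inflorescence arrays, against 2647 to 2797 and 2566 to 2744 in roots. Of 7 root hair markers 2 were measured. EXPA7 rose in gir roots by 0.44 (limma, adjusted p = 0.0052), where 5.49% of all tested probe sets rose, and EXPA18 was at 0.04 (adjusted p = 0.81). Both summed to 1933 to 2061 on Col-7 and 2251 to 2368 on gir root arrays. Of the floral organ and meristem markers 3 of 12 were measured and 0 passed in either tissue, and no endodermis marker was measured. No marker gene was a member, and EXPA7 and EXPA18 could not be, since the rule takes no symbol starting with EXP. In these bulk samples fewer cells of a type and less RNA per cell cannot be told apart, and the part of pollen or green tissue content, of RNA quality and of the ribosomal signal in the members' differences was not tested.

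The members' differences were larger in inflorescences than in roots. The root difference had a median of -0.54 over the 138 members, against -0.03 over all probe sets, and only 2 members were at or under -1. In inflorescences the median was -0.88, against 0.05 over all probe sets, and 62 members were at or under -1, of which 23 were at or under -2. In 113 members the inflorescence difference was the larger one, in 25 the root difference was, and in 45 both lay within 0.2 of each other. The root conditions alone were met by 5.32% of all probe sets and the inflorescence conditions alone by 7.72%. The same sizes with gir higher in both tissues were met by 0.229%. Near the limit, the 3 members just inside had a weaker difference of -0.40 each (250541_at, 264112_at and 254618_at), and the 3 probe sets just outside also rounded to -0.40, namely AT1G58120 (-0.40 in roots and -2.92 in inflorescences), 258984_at and 265463_at.

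**Figure D1:**
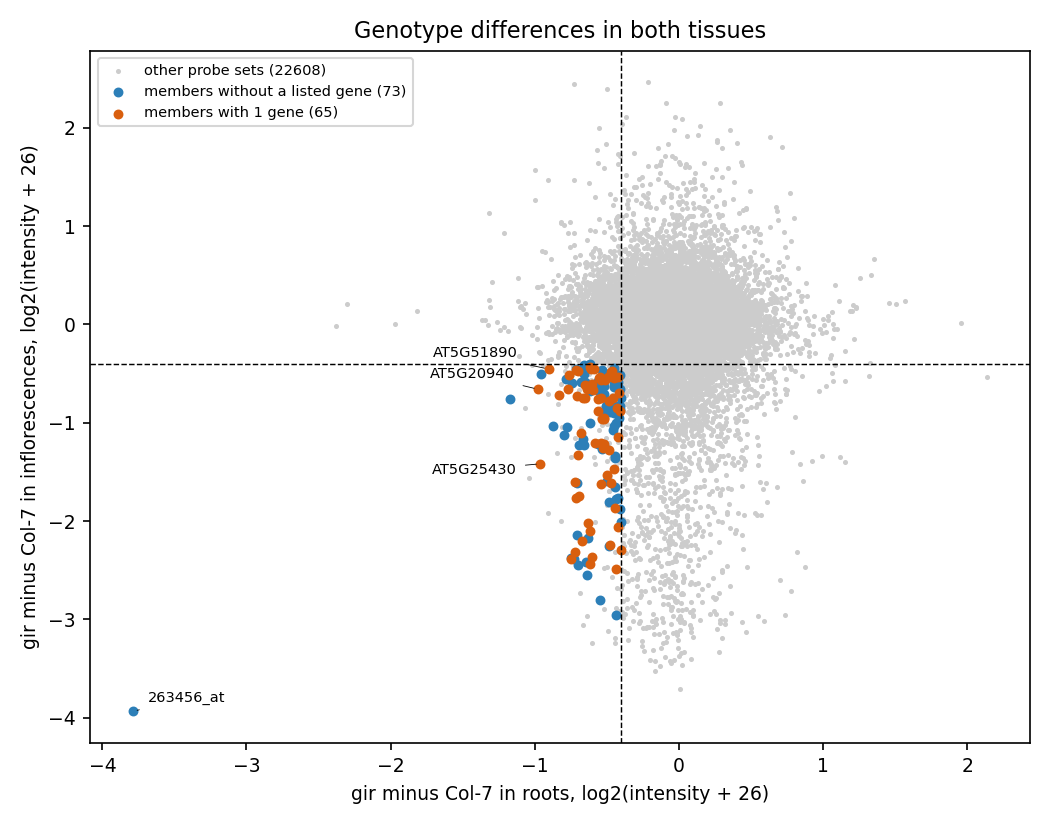
Difference gir minus Col-7 of each probe set in roots (horizontal axis) and in inflorescences (vertical axis), both on group means of log2(intensity + 26), with 3 root arrays and 4 inflorescence arrays per genotype. Dashed lines mark -0.4, orange points are members with 1 gene, blue points members without a listed gene and grey points all other probe sets. One member, 263456_at, lies far from the rest at -3.79 and -3.94, and the other members spread further down the inflorescence axis than along the root axis.

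Many members were dim in roots. Each array's own 40th percentile, below which a probe set was counted as dim, lay at 111 to 120.4 on root arrays and at 126 to 140.2 on inflorescence arrays. On all 6 root arrays 72 members lay below it, and on all 8 inflorescence arrays 21 did. The filter used for tests asks for as many arrays at or above that percentile as the smaller group holds. It was passed by 60 of the 138 members in roots, by 101 in inflorescences, by 52 in both and by 29 in neither. Of all 22746 probe sets, 13799 passed it in roots and 13970 in inflorescences. For dim members a small change in intensity makes a large log2 difference, and the added 26 reduces it. Of 54 genotype differences given below with values on every array, 27 genes in each tissue, 16 changed by more than 1.5 times with 8 in place of 26 and 18 with 64, nearly all of them root differences of dim genes. Over the 52 members that passed in both tissues, 22 of them named, the median differences were -0.52 in roots and -0.70 in inflorescences. These 52 include some that passed only through Col-7, where the rule makes them high.

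**Figure D2:**
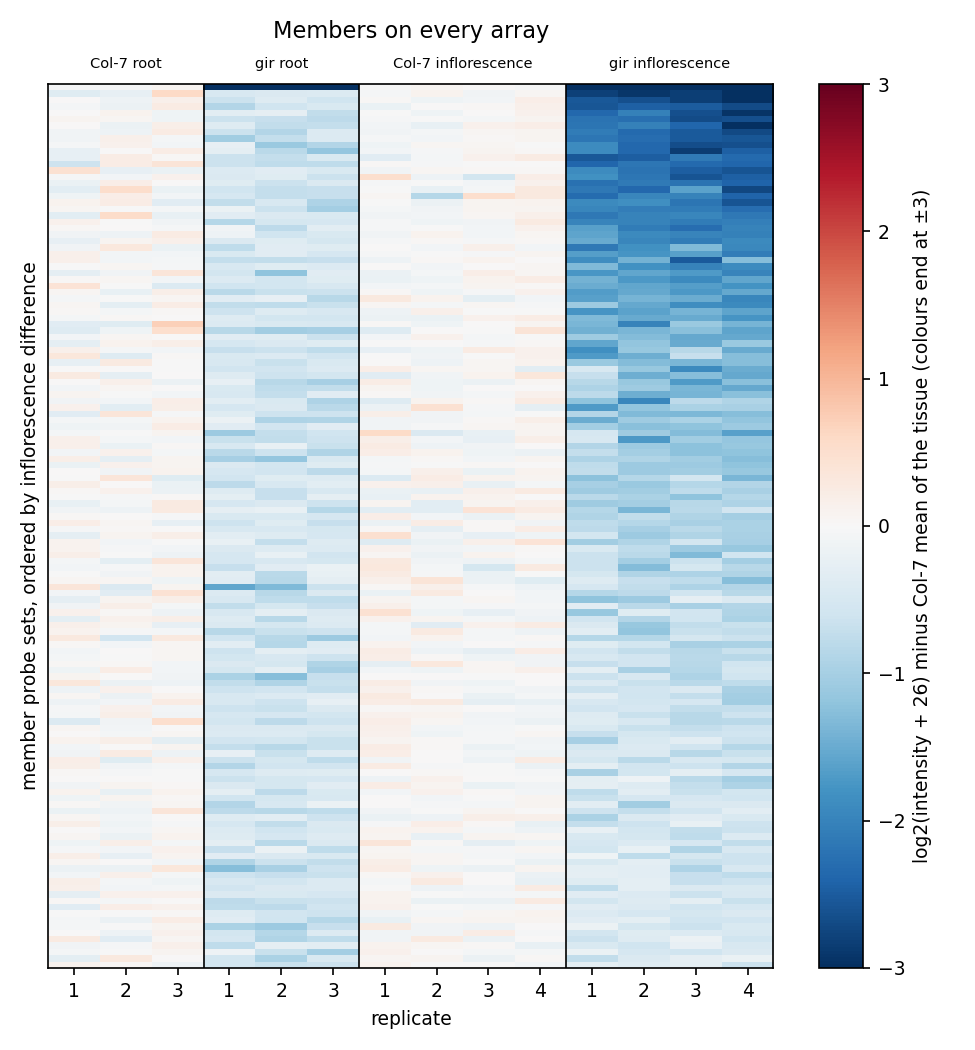
Each row is 1 of the 138 members and each column 1 array. The colour gives log2(intensity + 26) minus the Col-7 mean of the same tissue, blue for lower and red for higher, and ends at 3 in either direction. The gir root columns are mostly pale blue apart from the top row, and the gir inflorescence columns run from deep blue at the top to pale blue at the bottom.

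The largest difference in both tissues belonged to 263456_at, which has no listed gene and was singled out after its values were seen. Its intensity was 1453, 1461 and 1575 on the Col-7 root arrays and 82.0, 76.3 and 95.3 on the gir root arrays. In inflorescences it was 1156, 1209, 1166 and 1130.1 in Col-7 and 44.6, 46.8, 62.8 and 54.2 in gir. The groups were thus more than 10-fold apart in both tissues, and all gir values lay below the 40th percentiles of their arrays. On the log2 scale the differences were -3.79 ± 0.08 in roots and -3.94 ± 0.08 in inflorescences (± standard error of the difference, here and below), that is 13.8-fold and 15.3-fold lower with 26 added to each intensity. The next largest root difference among members was -1.17, and the next largest inflorescence difference -2.95. Both belonged to other probe sets without a listed gene. The 73 members without one had median differences of -0.52 in roots and -0.89 in inflorescences, close to the medians of -0.56 and -0.88 over the 65 named members. Of the 73, 34 were at or under -1 in inflorescences and 37 were dim on all 6 root arrays.

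Members of the pectin group were 5 of the 65 named genes, 3 for pectinesterases and 2 for proteins of the pectinesterase inhibitor family. Their differences ran from -0.77 to -0.41 in roots and from -2.24 to -0.48 in inflorescences. AT4G33230, a pectinesterase gene, read 27.0, 19.5 and 19.8 in Col-7 roots and 3.10, 2.94 and 3.81 in gir roots, all of them dim. In inflorescences it read 141, 164, 175 and 163 in Col-7 and 24.9, 44.2, 6.72 and 50.8 in gir. The Col-7 inflorescence arrays stood above all others, and the differences were -0.71 ± 0.07 and -1.77 ± 0.28. The pectinesterase gene AT4G15980 had root intensities of 22.6, 38.7 and 30.4 in Col-7 and 17.9, 9.84 and 15.8 in gir. Its inflorescence intensities were 341, 345, 326 and 379 in Col-7 and 53.4, 59.7, 54.3 and 45.1 in gir, differences of -0.48 ± 0.15 and -2.24 ± 0.07. Both genes were thus dim everywhere but in Col-7 inflorescences.

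The third pectinesterase gene, AT1G23200, was measured above the 40th percentile in Col-7 of both tissues. It read 213, 141 and 144 in Col-7 roots and 86.9, 76.1 and 93.1 in gir roots. Col-7 inflorescences gave 198, 153, 149 and 166 and gir inflorescences 119, 95.6, 84.3 and 87.2. The Col-7 values of the tissues overlapped, as did the gir values, and the differences were -0.77 ± 0.18 and -0.66 ± 0.12. Next to it on chromosome 1, with 1 gene between, lies AT1G23205 of the inhibitor family, which was at 104 ± 19.5 and 71.3 ± 6.56 in Col-7 and gir roots (mean ± SD, n = 3) and at 192 ± 52.8 and 91.7 ± 20.3 in Col-7 and gir inflorescences (n = 4). AT1G62770, also of the inhibitor family, was at 839 ± 27.3 and 506 ± 26.6 in Col-7 and gir roots and at 268 ± 46.2 and 184 ± 23.6 in inflorescences. It was the only pectin gene of the 5 whose root difference, at -0.70 ± 0.05, was measured above the 40th percentile on all arrays of both genotypes.

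**Figure D3:**
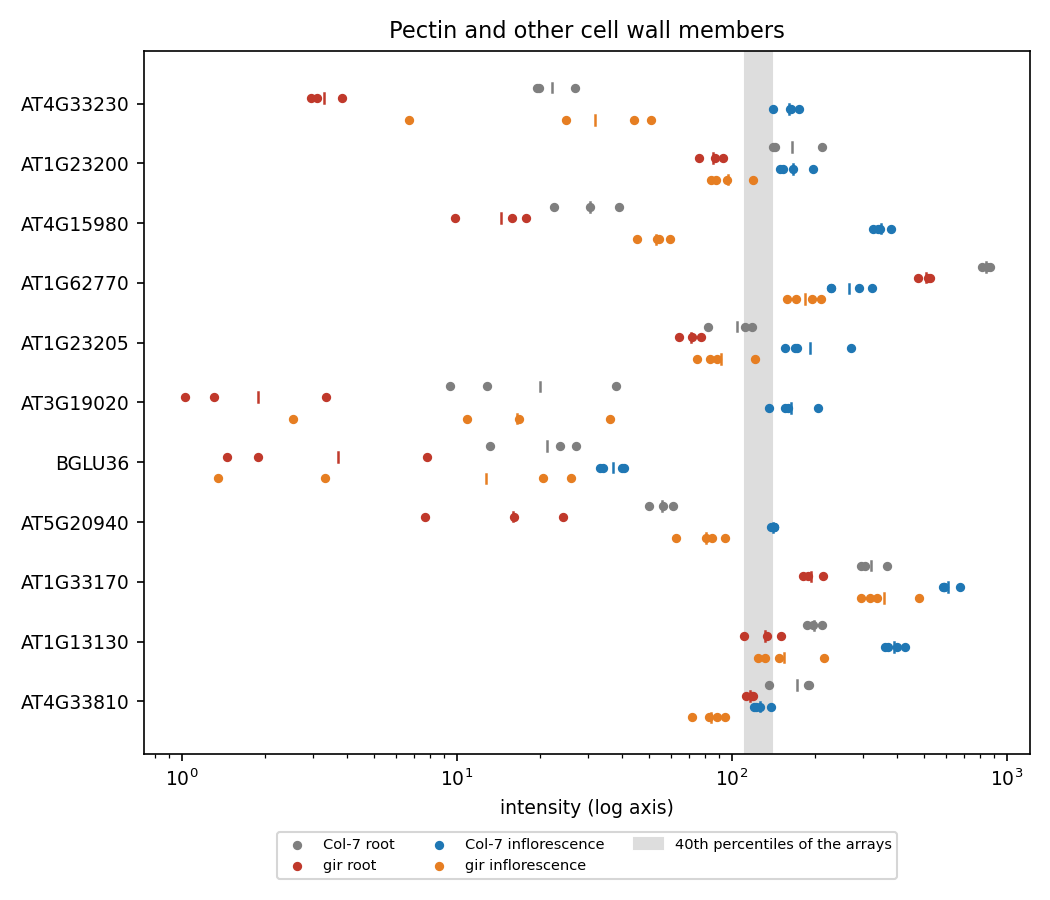
Intensity (log axis) of the 5 pectin members, on top, and the 6 members grouped with other parts of the cell wall on each array. Points are arrays, coloured by group (3 per root group and 4 per inflorescence group), short lines are group means and the grey band spans the 40th percentiles of the 14 arrays. For AT4G33230, AT4G15980 and AT3G19020 only the Col-7 inflorescence points reach the band or lie above it.

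The 6 members grouped with other parts of the cell wall included enzymes that act on glucans and xylan. AT5G20940, a glycosyl hydrolase of family 3, had intensities of 60.9, 56.4 and 50.0 in Col-7 roots and 16.1, 7.69 and 24.4 in gir roots. Inflorescences gave 142, 142, 139 and 142 in Col-7 and 80.5, 94.7, 62.5 and 84.5 in gir, so the differences were -0.98 ± 0.18 and -0.66 ± 0.09. All root values were dim, and the root difference was -1.46 with 8 and -0.59 with 64 in place of 26. AT3G19020 encodes a leucine-rich repeat extensin, a wall protein known from pollen tubes. It read 9.48, 37.8 and 12.8 in Col-7 roots, 3.35, 1.02 and 1.31 in gir roots, 161, 136, 156 and 205 in Col-7 inflorescences and 16.8, 10.9, 36.2 and 2.54 in gir inflorescences. Apart from Col-7 inflorescences every array was dim, and the differences were -0.67 ± 0.27 and -2.21 ± 0.26. Without Col-7 root replicate 2 the root difference was -0.41.

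BGLU36, a beta-glucosidase gene placed in this group though no action on the wall is shown for it here, was dim on all 14 arrays. Its values were 13.1, 23.7 and 27.1 in Col-7 roots, 7.77, 1.89 and 1.46 in gir roots, 40.5, 34.0, 39.96 and 33.2 in Col-7 inflorescences and 1.35, 3.33, 25.9 and 20.5 in gir inflorescences. The differences of -0.67 ± 0.16 and -0.75 ± 0.24 therefore rest on small intensities, and were -1.33 and -1.32 with 8 and -0.33 and -0.41 with 64 in place of 26. AT1G33170, a methyltransferase gene of the family that includes pectin methyltransferases, was above the 40th percentile on every array. It was at 322 ± 38.2 and 194 ± 16.9 in Col-7 and gir roots and at 611 ± 44.5 and 357 ± 83.0 in Col-7 and gir inflorescences, differences of -0.65 ± 0.11 and -0.75 ± 0.15. AT1G13130, a glycosyl hydrolase of family 5, differed by -0.52 ± 0.12 and -1.22 ± 0.16 from Col-7 means of 199 ± 13.1 and 389 ± 29.8, and AT4G33810, a xylanase of family 10, by -0.46 ± 0.14 and -0.48 ± 0.07.

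Calcium binding and the cytoskeleton were represented by 3 members, with inflorescence differences between -2.38 and -1.60. XIE, a class XI myosin that moves cargo along actin, read 39.1, 46.6 and 36.4 in Col-7 roots and 29.8, 4.72 and 10.2 in gir roots. In inflorescences it read 786, 911, 909.6 and 866 in Col-7 and 216, 148, 115 and 118 in gir. The root arrays were all dim, Col-7 inflorescences stood far above them, and the differences were -0.75 ± 0.27 and -2.38 ± 0.19. AT1G73630, an EF-hand calcium-binding protein, was the one with clear signal on every array: 558, 430.4 and 625 in Col-7 roots, 309.9, 303 and 324 in gir roots, 1193, 1109, 1195 and 1120.3 in Col-7 inflorescences and 528, 379.8, 300.1 and 288 in gir inflorescences. The gir inflorescence values overlapped those of both root groups, and the differences were -0.72 ± 0.15 and -1.60 ± 0.19. AT4G03620, a myosin heavy chain-related protein, had intensities of 12.4, 26.7 and 20.5 and 3.11, 1.79 and 7.09 in Col-7 and gir roots. Its inflorescence intensities were 161, 200.4, 234 and 255 in Col-7 and 14.3, 16.8, 28.0 and 20.6 in gir, with differences of -0.60 ± 0.15 and -2.37 ± 0.16. Like XIE, it exceeded the 40th percentile in Col-7 inflorescences, but in gir inflorescences it did so on no array.

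Protein kinases were 8 of the named members, with differences of -0.71 to -0.42 in roots and -2.06 to -0.46 in inflorescences. AT1G79640, a protein kinase, read 96.4, 151 and 143 in Col-7 roots, 64.8, 63.0 and 76.5 in gir roots, 398, 361, 349 and 355 in Col-7 inflorescences and 284, 266, 233 and 249.6 in gir inflorescences. Both inflorescence groups stood above both root groups, and the differences were -0.71 ± 0.18 and -0.46 ± 0.07. AT2G21480, a receptor kinase with a malectin-like domain described in pollen tubes, was at 26.7 ± 14.96 and 9.30 ± 1.44 in Col-7 and gir roots (mean ± SD, n = 3) and at 167 ± 10.9 and 36.6 ± 5.70 in inflorescences (n = 4). AT5G45840, a leucine-rich repeat receptor kinase also described in pollen tubes, was at 108 ± 4.12 and 68.8 ± 6.63 in roots and at 168 ± 28.7 and 40.9 ± 8.13 in inflorescences. The inflorescence differences of both were -1.63 ± 0.08 and -1.53 ± 0.14, beside root differences of -0.54 and -0.50.

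AT2G24370, a kinase with a nucleotide-binding stress domain, differed by -0.42 ± 0.28 in roots, where every array was dim, and by -2.06 ± 0.07 in inflorescences. AT4G22730, a leucine-rich repeat kinase, was the only kinase member above the 40th percentile on all 14 arrays, at 525 ± 72.7 and 356 ± 61.2 in Col-7 and gir roots and 627 ± 78.1 and 308 ± 26.3 in inflorescences. Its differences were -0.53 ± 0.18 and -0.96 ± 0.11. The remaining kinases differed by -0.56 and -0.88 (AT4G14780), -0.56 and -0.76 (AT2G19400) and -0.54 and -0.75 (AT1G24030) in roots and inflorescences.

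Transport proteins were another 8. AT5G25430, of the boron and bicarbonate transporter family, was dim on every array. It read 19.1, 27.3 and 57.2 in Col-7 roots, 6.92, 2.23 and 3.20 in gir roots, 52.4, 77.3, 76.9 and 109 in Col-7 inflorescences and 11.9, 13.6, 17.1 and 8.17 in gir inflorescences. The values of Col-7 roots and Col-7 inflorescences overlapped, and the differences were -0.96 ± 0.27 and -1.42 ± 0.18. The root difference was -1.73 with 8 and -0.51 with 64 in place of 26. AT2G36630, of the sulfite exporter family, was one of the few members with a larger difference in roots. Its intensities were 53.3, 17.7 and 53.5 in Col-7 roots and 17.1, 10.7 and 4.70 in gir roots. The inflorescence values were 170.1, 198, 174 and 187 in Col-7 and 88.6, 89.5, 117 and 108 in gir, giving differences of -0.84 ± 0.32 and -0.72 ± 0.09. Only the Col-7 inflorescence arrays exceeded the 40th percentile.

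AT2G18480, a polyol and monosaccharide transporter, was higher in roots than in inflorescences. It read 349, 340.1 and 318 in Col-7 roots, 167, 206 and 189.8 in gir roots, 165, 151, 142 and 122 in Col-7 inflorescences and 98.3, 112, 81.6 and 84.8 in gir inflorescences. Gir roots still lay above all inflorescence arrays, and the differences were -0.76 ± 0.09 and -0.51 ± 0.11. AT1G25530, an amino acid transporter, showed the same order of groups at 1276 ± 95.7, 867 ± 32.6, 356 ± 20.1 and 232 ± 14.7, with differences of -0.54 ± 0.07 and -0.57 ± 0.06. ZIP6, a zinc transporter, was at 321 ± 17.5 and 207 ± 72.7 in Col-7 and gir roots and 518 ± 34.9 and 378 ± 47.8 in inflorescences, differences of -0.62 ± 0.26 and -0.44 ± 0.09. The last 3 were dim on all root arrays: the nucleotide-sugar transporter gene AT5G25400 (-0.44 and -1.86), AT3G29060 of the family of the phosphate exporter PHO1 (-0.45 and -1.47) and CHX20, a cation and proton exchanger (-0.46 and -0.74).

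**Figure D4:**
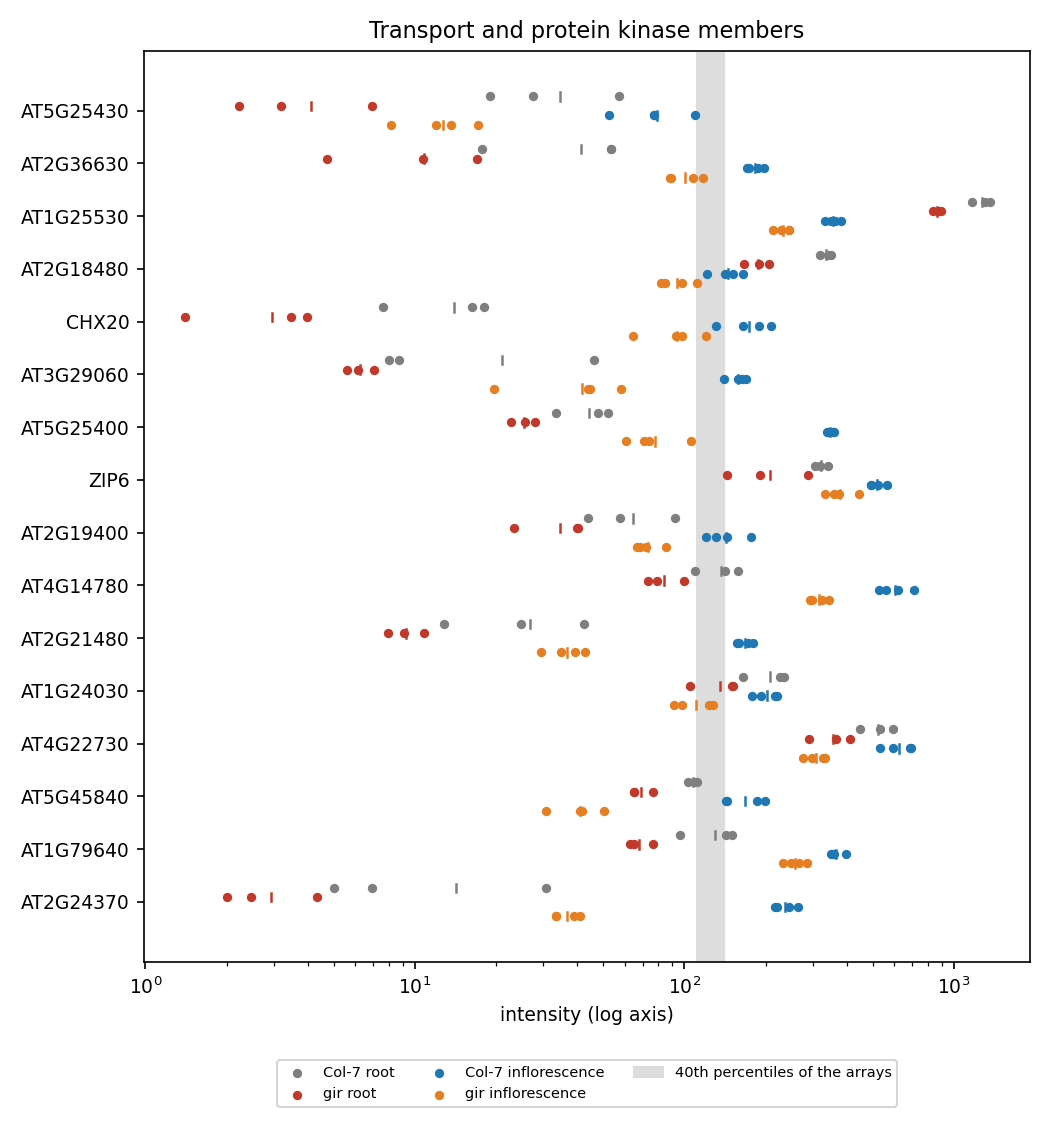
Intensity (log axis) of the 8 transport members, on top, and the 8 protein kinase members on each array. Points are arrays coloured by group, short lines group means, and the grey band the 40th percentiles of the 14 arrays. AT1G25530 and AT2G18480 have their highest points in Col-7 roots, while for most of the others the Col-7 inflorescence points lie furthest right.

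Lipid-related members were 6. AT3G18570, an oleosin of lipid droplets, was dim on all arrays but those of Col-7 inflorescences. It read 5.11, 30.5 and 37.1 in Col-7 roots and 4.53, 2.56 and 2.25 in gir roots. Inflorescences gave 243, 229, 234 and 235 in Col-7 and 24.2, 32.0, 25.96 and 24.0 in gir, differences of -0.72 ± 0.32 and -2.32 ± 0.05. AT3G19310, a phospholipase C-like phosphodiesterase, had values of 35.3, 39.9 and 30.2 in Col-7 roots, 22.8, 24.7 and 10.8 in gir roots, 639.6, 584, 646 and 708 in Col-7 inflorescences and 105, 138, 81.6 and 61.0 in gir inflorescences. The gir inflorescence arrays lay between the roots and Col-7 inflorescences, and the differences were -0.44 ± 0.16 and -2.49 ± 0.20.

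AT1G75880, an extracellular lipase of the GDSL family, was dim in roots at 10.7, 33.3 and 19.2 in Col-7 and 9.82, 3.86 and 4.17 in gir. In inflorescences it read 2220.3, 1830.3, 1868 and 1951 in Col-7 and 1059.9, 773, 759 and 793 in gir. It stayed well above the 40th percentile in gir inflorescences, and its differences were -0.54 ± 0.22 and -1.20 ± 0.13. Without Col-7 root replicate 2 the root difference was -0.36. AT5G01870, a lipid transfer protein, had the opposite tissue pattern. Its values were 6851, 6428 and 7061 in Col-7 roots, 5070.2, 4444 and 4926 in gir roots, 437, 439, 384 and 361 in Col-7 inflorescences and 342, 267, 231 and 250.0 in gir inflorescences. Both root groups lay more than 10-fold above both inflorescence groups, and the genotype differences were -0.49 ± 0.07 and -0.54 ± 0.13. AT3G48460, another lipase of the GDSL family, differed by -0.48 ± 0.19 and -0.78 ± 0.25, and the plastid lipase gene AT3G62590 by -0.42 ± 0.10 and -0.54 ± 0.10.

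Metabolic enzymes were 7 of the named members. APS4, an ATP sulfurylase of sulfate assimilation, had intensities of 4584, 4908 and 5079 in Col-7 roots and 3167, 3945 and 3822 in gir roots. In inflorescences it was at 708, 540.4, 498 and 711 in Col-7 and 399.8, 353, 332 and 373 in gir. All root values exceeded all inflorescence values, and the differences were -0.42 ± 0.11 and -0.70 ± 0.14. AT5G44400, of the berberine bridge enzyme family, read 2938, 2943 and 2929 in Col-7 roots, 1953, 1949.5 and 2206 in gir roots, 768, 689.7, 688 and 525 in Col-7 inflorescences and 466, 288, 156 and 218 in gir inflorescences. The 3 Col-7 root arrays were nearly equal while the gir inflorescence arrays were scattered, and the differences were -0.52 ± 0.06 and -1.26 ± 0.32. AT5G51890, a class III peroxidase, had values of 1813, 1855 and 1992 in Col-7 roots, 968, 873 and 1166 in gir roots, 1327, 1020.3, 988 and 1115 in Col-7 inflorescences and 971, 762, 698 and 792 in gir inflorescences. The gir root range overlapped that of both inflorescence groups, and the differences were -0.90 ± 0.13 and -0.45 ± 0.14.

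AT1G74010, a strictosidine synthase-like protein, was at 856 ± 72.4 and 546 ± 71.7 in Col-7 and gir roots (mean ± SD, n = 3) and at 578 ± 81.1 and 121 ± 5.18 in Col-7 and gir inflorescences (n = 4). Its gir inflorescence arrays were the only ones below the 40th percentile. UGT85A3, a glycosyltransferase that uses UDP-sugars, was at 61.4 ± 3.86 and 37.9 ± 13.3 in roots and 486 ± 87.2 and 142 ± 27.5 in inflorescences, differences of -0.47 ± 0.19 and -1.61 ± 0.18. AT3G03080, an alkenal reductase-like dehydrogenase, differed by -0.62 ± 0.24 and -2.10 ± 0.08, and AT5G08250, a cytochrome P450, by -0.65 ± 0.28 and -0.62 ± 0.15.

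The remaining 22 named members include several for which no role is given here. AT5G45880, of the Ole e 1 pollen allergen family, was dim in roots at 29.8, 8.05 and 9.10 in Col-7 and 4.65, 6.03 and 3.36 in gir. In inflorescences it read 8023, 8989, 8779.7 and 8782 in Col-7 and 2312, 1826, 1541 and 1405 in gir, differences of -0.40 ± 0.23 and -2.29 ± 0.16. The gir inflorescence arrays were still far above the roots, and without Col-7 root replicate 1 the root difference was -0.17. AT2G22180, a hydroxyproline-rich glycoprotein, read 22.1, 16.5 and 27.9 in Col-7 roots, 10.7, 2.58 and 3.05 in gir roots, 358, 318, 415 and 435 in Col-7 inflorescences and 63.3, 73.8, 51.8 and 18.8 in gir inflorescences. Only the Col-7 inflorescence arrays were above the 40th percentile, and the differences were -0.62 ± 0.15 and -2.44 ± 0.27. AT3G54040, of the photoassimilate-responsive protein family, was high in roots. Its intensities were 4962, 4191 and 4258 in Col-7 roots, 2979, 3314 and 3344 in gir roots, 165, 146, 156 and 201 in Col-7 inflorescences and 87.7, 130.4, 116 and 115 in gir inflorescences, and the differences were -0.47 ± 0.09 and -0.48 ± 0.13.

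AT2G27740 and AT1G64405 were above the 40th percentile on all Col-7 arrays of both tissues. AT2G27740 read 180.5, 161 and 160.3 in Col-7 roots, 82.0, 95.8 and 100.2 in gir roots, 360.2, 454, 356 and 333 in Col-7 inflorescences and 293, 149, 223 and 214 in gir inflorescences. AT1G64405 read 428, 369 and 361 in Col-7 roots, 231, 218 and 241 in gir roots, 217, 176, 154 and 216 in Col-7 inflorescences and 128, 39.2, 77.9 and 69.5 in gir inflorescences. For AT2G27740 the differences were -0.71 ± 0.08 and -0.73 ± 0.20, and gir inflorescences overlapped Col-7 roots. For AT1G64405 they were -0.68 ± 0.08 and -1.10 ± 0.28, and both root groups lay above all inflorescence arrays. AT3G11740, of the LURP-one-like family, had root values of 29.1, 35.2 and 58.8 in Col-7 and 19.1, 2.50 and 26.4 in gir. Its inflorescence values were 179.7, 198, 241 and 217 and 43.5, 52.9, 46.4 and 33.4, differences of -0.70 ± 0.32 and -1.75 ± 0.12. Without gir root replicate 2 the root difference was -0.44. AT1G06540, dim on all arrays, read 74.0, 60.9 and 59.8 in Col-7 roots, 30.4, 31.7 and 27.3 in gir roots, 83.5, 93.9, 128 and 117 in Col-7 inflorescences and 10.5, 33.3, 47.3 and 19.8 in gir inflorescences. The gir inflorescence values overlapped those of gir roots, and the differences were -0.70 ± 0.08 and -1.33 ± 0.25.

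AT5G09500, a ribosomal protein of the S15 family, differed by -0.60 ± 0.24 in roots, where it was dim, and by -0.66 ± 0.17 in inflorescences. AT4G01575, a protease inhibitor of the Kazal type, differed by -0.42 ± 0.14 and -1.14 ± 0.07. It was above the 40th percentile on all 14 arrays, as were AT2G38820 (-0.45 and -0.55) and AT4G23490 (-0.43 and -0.85). The others were AT1G11170, AT1G50290, AT1G58070, AT2G20070, AT3G19230, AT3G19610, AT3G45320, AT3G56730, AT5G40645, AT5G55980 and AT5G60260. Among these the inflorescence differences of -1.27 for AT5G40645 and -1.20 for AT5G60260 were the largest, and both genes were dim in roots.

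The rule did not use the contrast between wild-type tissues, but it used the same Col-7 arrays, so tests of that contrast on members are not fully independent of the choice. Of the 60 members above the 40th percentile on all 3 Col-7 root arrays, 25 (41.7%) were higher and 27 (45%) lower in Col-7 inflorescences than in Col-7 roots by limma (adjusted p under the threshold of 0.05), and 8 did not pass. Of all 13121 such probe sets 28.3% were higher and 46.7% lower. The members' shares are not read as a result. The rule takes only probe sets with enough signal in Col-7 inflorescences to leave room for a fall, which the 13121 need not have. In the other direction 259439_at, dim on all Col-7 inflorescence arrays, had to be lower there. Over all 113 members that passed the filter in these arrays, 78 were higher and 27 lower, where of 15438 probe sets tested 38.1% were higher and 39.7% lower. Nothing is read from the count of 78, since 48 of them were dim on all 6 root arrays, passed the filter through the inflorescence arrays alone and so had to be higher there.

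AT5G45880, AT1G75880, XIE and AT3G19310 were among those 48, and their levels in both tissues, given above, are a description with no test. Toward roots, AT3G54040 had the widest difference at -4.55 ± 0.11 (adjusted p = 4.7e-10). The lipid transfer protein gene AT5G01870 was at -3.98 ± 0.09 (adjusted p = 3.2e-10). The ATP sulfurylase gene APS4 was at -2.95 ± 0.13 (adjusted p = 2.6e-08) and AT5G44400 at -2.11 ± 0.12 (adjusted p = 1.3e-07). In all 4 genes every Col-7 inflorescence array lay below every Col-7 root array. The pectinesterase gene AT1G23200 did not pass (0.02, adjusted p = 0.91), and neither did the kinase genes AT4G22730 (0.25, adjusted p = 0.095) and AT1G24030 (-0.03, adjusted p = 0.84). The fourth named gene that did not pass was AT3G56730 (-0.20, adjusted p = 0.15). AT4G22730 did pass without Col-7 inflorescence replicate 3 or without Col-7 root replicate 1 (adjusted p = 0.039 and 0.049), and AT3G56730 did pass with both other scalings, median centring (-0.34, adjusted p = 0.024) and quantile normalization (-0.35, adjusted p = 0.020). Median centring moved the median tissue difference of all probe sets tested from -0.02 to -0.17. Then 75 members were higher and 29 lower, beside 5088 and 7122 of all 15438 probe sets tested.

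**Figure D5:**
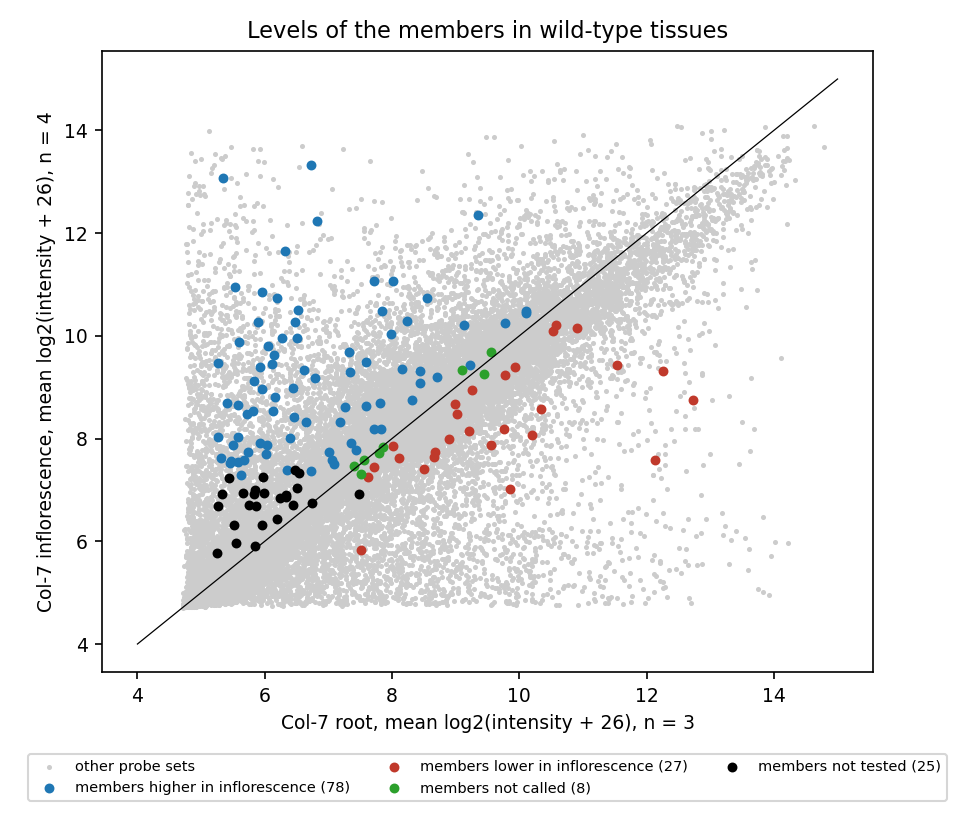
Mean log2(intensity + 26) of each probe set in Col-7 roots (horizontal axis, 3 arrays) and Col-7 inflorescences (vertical axis, 4 arrays), with the line of equal level. Coloured points are the members by limma's call between these tissues, black points members that were not tested and grey points other probe sets. Of the 78 members above the line that were called higher, 48 are dim on all 6 root arrays and had to be higher to pass the filter, and the 27 called lower lie below the line.

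The rule fixes the direction and much of the size of the differences on single arrays too, so their values by array are a description. Between same-numbered inflorescence arrays the members' median difference was -0.81 for replicate 1, -0.96 for replicate 2, -0.90 for replicate 3 and -0.98 for replicate 4. At or under -0.4 within a pair were 124, 125, 120 and 133 members respectively. Replicates 1 and 2 alone, where the 25S ribosomal RNA signal was 345 to 954, gave a median of -0.87, and replicates 3 and 4 alone gave -0.97. In roots the medians of the same-numbered arrays were -0.49, -0.59 and -0.57.

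Among relatives of the members, differences went in both directions. Of 46 other probe sets naming UGT glycosyltransferases, 27 were tested in roots and 17 in inflorescences. In roots 3 rose and 3 fell by limma, where 5.49% of all tested probe sets rose and 6.36% fell, with UGT88A1 at -0.64 ± 0.07 (adjusted p = 0.0016) and UGT85A2, of the same subfamily as UGT85A3, at 0.30 ± 0.07 (adjusted p = 0.022). UGT85A2 no longer passed in roots without gir replicate 1 or 2 or without Col-7 replicate 1 or 3 (adjusted p = 0.077, 0.085, 0.062 and 0.0504), nor with no filter (0.077), the joint fit of all 14 arrays (0.198) or the replicate block (0.0505). The joint fit left 0 UGT probe sets higher in roots, and leaving out 1 root array gave 0 to 3 UGT probe sets higher and 1 or 2 lower. In inflorescences 2 rose and 1 fell, where 12.5% rose and 12.5% fell, with UGT85A2 at 0.57 ± 0.13 (adjusted p = 0.0087). The one that fell there, UGT87A2, did not pass without gir replicate 2 or 4 or Col-7 replicate 3 or 4, nor with median centring, quantile normalization, no filter, the 60th percentile filter or replicates 1 and 2 alone. Of 19 other beta-glucosidase probe sets named BGLU, 10 were tested in roots, with 2 higher and 1 lower. BGLU24 was at -0.77 ± 0.08 (adjusted p = 0.0012) and BGLU45 at 0.66 ± 0.08 (adjusted p = 0.0025). The joint fit lost BGLU45 (adjusted p = 0.086) and left 0 BGLU probe sets higher in roots. The 60th percentile filter tested 6 of them there, with 0 higher and 0 lower, and no filter left 1 higher. In inflorescences 9 were tested, with 1 higher, BGLU15 at 0.48 ± 0.10 (adjusted p = 0.0051), and 1 lower, BGLU33 at -0.34 ± 0.09 (adjusted p = 0.022). With the replicate number as a block, 2 were higher and 1 lower, and with the 60th percentile filter 0 of 7 tested were lower. BGLU15 did not pass with replicates 1 and 2 alone (0.37, adjusted p = 0.13). BGLU33 did not pass there either (adjusted p = 0.40), nor without gir replicate 2 or 4 or Col-7 replicate 1, 3 or 4.

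Some smaller families were looked up after the members were known. The myosin XIC fell in inflorescences by 1.60 ± 0.12 on the log2 scale (adjusted p = 3.6e-06) and was not tested in roots. XI-I, another class XI myosin, was at -0.06 ± 0.08 in roots and 0.23 ± 0.09 in inflorescences (adjusted p = 0.69 and 0.095), and the latter passed without Col-7 replicate 1 (0.29, adjusted p = 0.0475), with median centring (0.27, adjusted p = 0.0476) and in the joint fit (0.23, adjusted p = 0.0478). CHX19, an exchanger of the family of CHX20, was at -2.62 ± 0.13 in inflorescences (adjusted p = 2e-07) and was not tested in roots. Of all probe sets tested in inflorescences 12.5% rose and 12.5% fell. Whether XIC and CHX19 passed the filter through Col-7 inflorescences alone, and so had to be lower in gir, was not checked. APS3, an ATP sulfurylase like APS4, was at 0.09 ± 0.08 in roots (adjusted p = 0.54) and rose in inflorescences by 0.42 ± 0.10 (adjusted p = 0.012), opposite to APS4 in direction.

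The 65 named genes lay on all 5 chromosomes, 19 on chromosome 1, 10 on chromosome 2, 14 on chromosome 3, 8 on chromosome 4 and 14 on chromosome 5. Chromosome 1 held 29.2% of them and 25.7% of the genes named on the array, and chromosome 4 held 12.3% and 14.6%. Apart from AT1G23200 and AT1G23205, members lay within 10 places of each other in gene order in 2 cases: AT5G25400 and AT5G25430, both for transporters, with 4 genes between, and the kinase gene AT5G45840 and AT5G45880, also with 4 between. No gene of a member had another probe set on the array that names it alone, so no second measurement of a member was at hand.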

How the data were processed

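The arrays are Affymetrix ATH1, and the deposited values are MAS5 signal intensities, 1 per probe set and array, as named in the submitters' processing notes. The deposited intensities have a mean of 500 on every array once the lowest and highest 2% are trimmed, so the authors' scaling was to a common mean. No step of background correction or summarising was repeated. Groups were taken from the labels, genes from the platform annotation with symbols and gene order from the RefSeq table of assembly TAIR10.1, and a probe set it does not list is unnamed here. The members and all lists were chosen with earlier results of these data known, and the gene groups by role after the members' values were seen.

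Values were used as log2(intensity + 26), where 26 lies at about the 20th percentile of all values. Tests were made with limma 3.58.1 (lmFit and eBayes, R 4.3.3, two-sided) on probe sets that reached their array's 40th percentile on as many arrays as the smaller group holds, with Benjamini-Hochberg adjustment over all of them. The script was tested on simulated data. The genotype fits served only genes that are not members. Standard errors of members' differences come from the arrays' log2 values, with the groups taken as independent. Unless the replicate block is named, p-values come from fits without it. Neither takes same-numbered arrays as pairs. Array values are given for 263456_at, chosen after its values were seen, and for the 12 named members with the largest weaker difference, 5 more each by root and inflorescence difference, and 4 in each direction by Col-7 tissue difference.

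Same-numbered gir and Col-7 inflorescence arrays deviated together from their group means (r = 0.587, 0.191, 0.203 and 0.516), and were taken as pairs on this ground alone. Arrays of different number also correlated, up to 0.402 for gir 4 with Col-7 3, and gir 3 did so more with Col-7 4 (0.249) than with its own number, so replicates 1 and 2 against 3 and 4 are not told apart from pairs. Those of roots (0.077, 0.007 and 0.017) and of Col-7 across tissues (-0.014, 0.021 and -0.005) were not. Alternatives were other pseudocounts, filters and scalings, a joint fit, the replicate block and leaving out arrays. The 14 arrays limit the precision. Promoter motifs were not searched, as no sequence was at hand.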

Additional observations from a re-analysis of the deposited data

Results flagged for a closer look

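AT1G75880, an extracellular lipase gene of the GDSL family, read 1059.9 on gir inflorescence replicate 1 and 759 to 793 on the other 3 gir inflorescence arrays, a gap to the nearest array that is large against the range of the group. This was 1 of 54 such comparisons over groups of 4 arrays, of which chance gives about 1 in 20. All 4 values lay below those of Col-7 inflorescences.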

How the results depend on the processing

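The number of members depends on the added constant and on the scaling. With 8 in place of 26 the rule gave 182 transcripts and with 64 it gave 57, all of them members, since a larger constant shrinks differences of dim probe sets. Median centring gave 99 and quantile normalization 84, of which 83 were members. Leaving out 1 array gave 140 to 186, of which 117 to 137 were members, the fewest without Col-7 root replicate 3 (160, with 117 members). Inflorescence replicates 1 and 2 alone gave 192, with 130 of the members, and replicates 3 and 4 alone gave 194, with 132. Under all 20 alternatives 38 members met the rule, 19 of them named, among them AT5G25430, XIE, AT1G73630, AT1G23200, AT1G33170 and AT5G20940. With 8 and 64 in place of 26, the root difference of AT4G33230 was -1.41 and -0.35, of AT3G19020 -1.38 and -0.34, of AT3G18570 -1.36 and -0.38, of AT2G36630 -1.34 and -0.48, of XIE -1.24 and -0.42, of AT4G03620 -1.21 and -0.30, of AT2G22180 -1.20 and -0.31, of AT3G11740 -1.15 and -0.39, of AT1G75880 -1.01 and -0.28, of AT5G45880 -0.79 and -0.20, of AT4G15980 -0.77 and -0.27 and of AT3G19310 -0.69 and -0.25. With 64, AT1G06540 was at -0.46 in roots and AT5G25430 at -0.89 in inflorescences, and with quantile normalization AT3G19310 was at -0.28 in roots. The order of the named members by size changes with the constant. BGLU36, dim on all arrays, moved from -0.75 to -1.16 in inflorescences with replicates 1 and 2 and to -0.35 with replicates 3 and 4.

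A filter at the 60th percentile tested 74 members, fewer than the main one. Of these, 49 were called higher and 22 lower between Col-7 tissues, beside 4148 and 4737 of all 10948 probe sets tested. Without a filter the members numbered 96 and 25 of 138, beside 7164 and 7329 of all 22746 probe sets. Without 1 array they numbered 73 to 79 and 22 to 26, beside 5608 to 5799 and 5823 to 6028 probe sets. Col-7 inflorescence replicates 1 and 2 alone, chosen after seeing the data, gave 76 and 23 of 112 members. The probe sets were then 5603 and 6045 of 15605. These counts are not read as a result, since 48 of the 78 members called higher in the main fit were dim on all 6 root arrays. The tissue difference of AT1G23200, not called at 0.02, turned to -0.13 with median centring, -0.14 with quantile normalization, -0.055 without Col-7 inflorescence replicate 1, and -0.070 and -0.059 without Col-7 root replicates 2 and 3, and was 0.19 without root replicate 1. That of AT1G24030, not called at -0.03, turned to 0.021 without Col-7 inflorescence replicate 4, 0.029 and 0.053 without root replicates 2 and 3, and 0.078 with inflorescence replicates 1 and 2 alone, and was -0.17 without root replicate 1.

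In the paired comparison of inflorescences, the replicate block gave 2706 probe sets higher and 2159 lower, against 1744 and 1743 without it. Replicates 1 and 2 alone gave 583 and 1086. In the other fits, whose numbers do not pair arrays, the replicate block gave 608 and 673 in roots against 758 and 878. Between Col-7 tissues it gave 78 members higher and 23 lower, beside 5691 and 5881 of all 15438 probe sets tested. There it turned AT1G24030 to 0.021 and let AT4G22730 pass (adjusted p = 0.037), as did Col-7 inflorescence replicates 1 and 2 alone (0.025). Median centring changed the split to 1037 higher and 690 lower in roots and to 2473 and 1577 in inflorescences. In roots no filter gave 264 and 352 and the joint fit 308 and 399, and leaving out 1 array 359 to 588 and 455 to 642, fewest without gir replicate 2 (359 and 455) and next without gir replicate 1 (385 and 478). Without Col-7 root replicate 2 there were 493 and 545. In inflorescences leaving out 1 array gave 1167 to 2134 and 1503 to 1968. All 7 late pollen markers tested stayed lower whichever inflorescence array was left out. A filter at the 60th percentile left 3 of them to test, all 3 lower. Those named above that passed the filter through Col-7 inflorescences alone had to be lower in each case. The cause of these shifts was not tested, apart from the number of probe sets and arrays that each alternative sets.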
